A study of Bos taurus with 9 samples.

Results

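The ligands of the epidermal growth factor (EGF) family were followed in 3D-cultured bovine uterine glands as 6 genes chosen by symbol, namely AREG, TGFA, EGF, BTC, HBEGF and EREG. Of these 6 genes, 5 were measured among the 20679 genes of the deposited tables, and EGF itself was not analysed here. The samples were 9 RNA-seq libraries of gland fragments on day 5 of culture, with 3 libraries in each of 3 groups. The CYST group received no EGF and formed cysts. The MAT group received EGF in Matrigel alone and formed uterine gland-like (UG-LIKE) structures, and the MAT + COL group received EGF in Matrigel supplemented with type I collagen.

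All groups shared the same type of starting material and the same base conditions. The fragments were released by enzymatic digestion from the endometrium of abattoir uteri carrying a corpus luteum, picked by hand, and embedded in a Matrigel with reduced growth factor content. The medium of every group held serum albumin, ascorbic acid, transferrin, sodium selenite and insulin. Per the study's methods collagen I was at 0.5 mg/ml. EGF was at 5 ng/ml in the study's cultures with and without collagen I, and in its staining of UG-LIKE structures. Its RNA-seq methods do not restate the dose, and the labels do not give it. The labels do not name the animal behind a library. EGF was added as a protein, so the values below are transcripts of the cells' own ligand genes. The cultures were measured in bulk, where fewer cells of a type and less RNA per cell cannot be told apart.

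EGF family ligands are made as membrane-anchored precursors. Surface proteases, chiefly ADAM17, release the mature factor, which binds receptors of the ErbB family on the same or a nearby cell and drives the ERK pathway. AREG (amphiregulin), TGFA (transforming growth factor alpha) and EGF bind EGFR, whereas BTC (betacellulin), HBEGF (heparin-binding EGF-like growth factor) and EREG (epiregulin) bind EGFR and ERBB4. Several of these genes are themselves induced by EGFR signaling in other epithelia. In the uterus, AREG is known as a progesterone-responsive epithelial gene and HBEGF for its role around embryo attachment.

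EREG, AREG and BTC lay close together on chromosome 6. On the ARS-UCD2.0 build, EREG (ENSBTAG00000010273) covered chr6:89306948-89327099 and AREG (ENSBTAG00000018134) covered chr6:89379645-89391878, both on the forward strand. BTC (ENSBTAG00000004237) covered chr6:89681975-89732368 on the reverse strand. HBEGF (ENSBTAG00000021766) covered chr7:51533600-51544783 on the reverse strand, and TGFA (ENSBTAG00000000783) covered chr11:13805984-13980029 on the forward strand. No other gene of the tables overlapped any of these 5 spans.

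Depth ranged from 6568968 to 17948600 counts per library, and the 5 ligands were counted 54 to 1806 times in a library, so none was at or under the floor of 3 counts. Epithelial identity was visible in every library. The 6 epithelial markers, which include EPCAM and the keratins KRT8, KRT18 and KRT19, were all detected, and their summed TPM (a transcript level per length, scaled within each library) was 16649 to 18423 in CYST, 27613 to 43306 in MAT and 28181 to 38520 in MAT + COL. The 9 stromal markers were also all detected, with a summed TPM of 2259 to 4878 in CYST, 1208 to 3798 in MAT and 2231 to 4315 in MAT + COL. Leukocyte markers summed to at most 48.4 TPM and endothelial markers to at most 26.1 TPM in any library, and the 3 ciliated-cell markers measured summed to between 29.0 and 87.6 TPM.

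HBEGF and EREG were the most abundant ligand transcripts in cysts, whereas AREG stood beside HBEGF at the top in both groups grown with EGF. In CYST, HBEGF averaged 65.3 ± 8.31 TPM (SD, n = 3), EREG 42.5 ± 30.4 and AREG 15.4 ± 8.64, followed by TGFA at 4.33 ± 1.84 and BTC at 3.65 ± 0.818. Only the step from AREG down to TGFA separated neighbours whose ranges did not overlap.

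In MAT, AREG averaged 80.6 ± 29.9 TPM, HBEGF 70.5 ± 6.09, EREG 23.0 ± 2.74, BTC 9.93 ± 1.42 and TGFA 9.91 ± 2.45. In MAT + COL the order was unchanged, with AREG at 79.9 ± 36.4 TPM, HBEGF at 76.1 ± 12.2, EREG at 38.1 ± 15.2, BTC at 10.04 ± 1.73 and TGFA at 9.10 ± 3.26. In both of these groups the ranges of AREG and HBEGF overlapped, as did those of BTC and TGFA, while HBEGF lay above EREG and EREG above BTC in all 3 libraries.

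**Figure D1:**
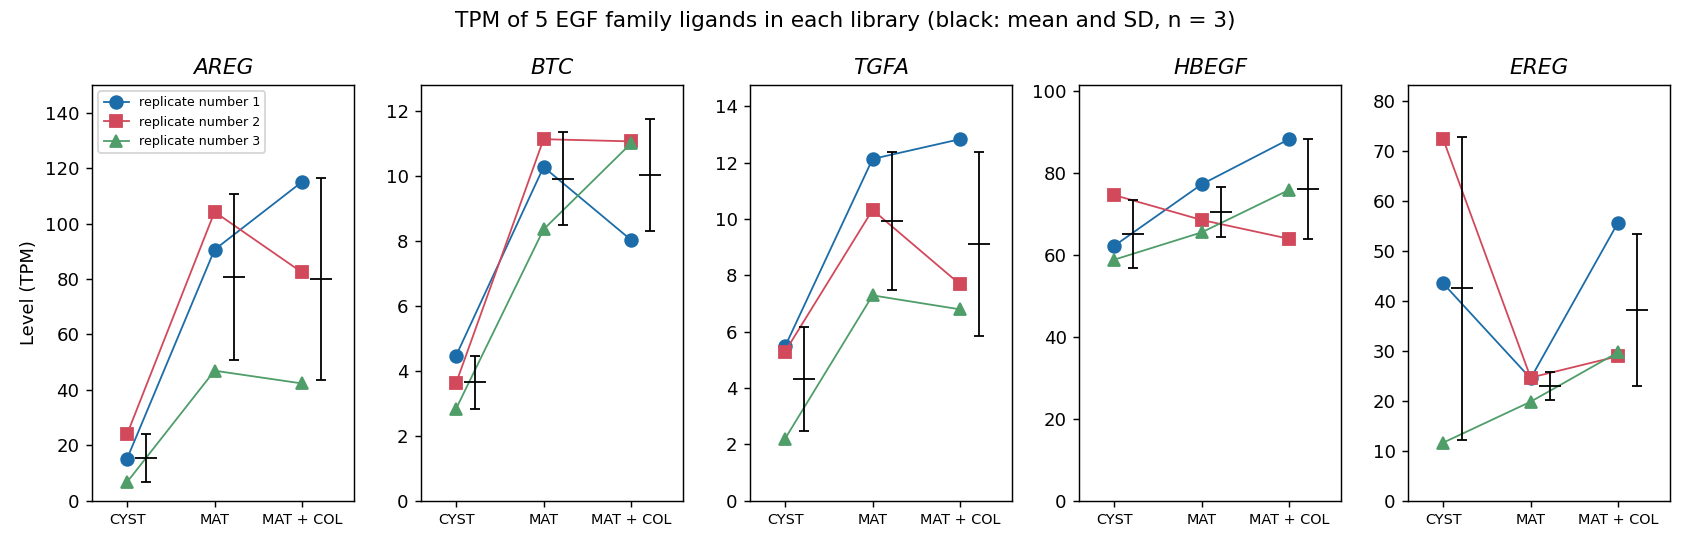
Level of each ligand in TPM (vertical axis, starting at 0 and scaled separately per gene) in the 9 libraries, with lines joining libraries of the same replicate number and black bars giving the mean and SD of 3 libraries. AREG, BTC and TGFA were lower in every CYST library than in any library with EGF, HBEGF stayed between 58.9 and 88.3 TPM, and EREG ranged from 11.6 to 72.4 TPM among the CYST libraries alone. How many of all genes were separated in this way was not taken.

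The comparison of MAT with CYST asks how the cells' own ligand transcripts differed when EGF was present and the fragments elongated. AREG rose by 5.33-fold, the largest difference among the ligands. BTC and TGFA had fitted folds of 2.72 and 2.33. Both passed edgeR's quasi-likelihood test with the replicate number as a block and missed it without the block. Also without the block, DESeq2 and the likelihood ratio test called both, and limma on log2(TPM + 1) called neither. The share of all genes called by these other tools was not taken. HBEGF had a Log2FC near 0, and EREG had no common direction across replicate numbers.

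AREG, a ligand of EGFR alone, was at 15.3, 24.1 and 6.81 TPM in CYST replicates 1, 2 and 3. In MAT it was at 90.6, 104.2 and 46.9 TPM in the same order. The groups did not overlap, and replicate number 3 was the lowest in both. The share of all genes without overlap was not taken, so non-overlap here and below is a description only. The Log2FC (log2 of the fold change of normalized counts, MAT over CYST) was 2.42 ± 0.43 (SE), with an adjusted p of 0.0448 in edgeR's quasi-likelihood test, and AREG met the criteria for a differentially expressed gene (DEG), as did 1.45% of the genes tested.

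Within replicate numbers, the MAT level of AREG was 5.93-, 4.33- and 6.90-fold that of CYST. With the block the Log2FC was 2.47 ± 0.21 and the adjusted p was 0.00173. The call without the block rested on single libraries: the adjusted p was 0.166 without CYST replicate 1, 0.0877 without CYST replicate 2, 0.134 without MAT replicate 1 and 0.0984 without MAT replicate 2, and it stayed below the threshold without either library of number 3, at 0.0486 and 0.0415. The Log2FC in these 6 fits lay between 2.12 and 2.86.

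TGFA, the other measured ligand of EGFR alone, was at 5.48, 5.30 and 2.21 TPM in CYST and at 12.1, 10.3 and 7.29 TPM in MAT. Every MAT library was above every CYST library. The Log2FC was 1.22 ± 0.34 with an adjusted p of 0.0990, and with the replicate block it was 1.26 ± 0.24 with an adjusted p of 0.0226. The blocked call did not hold in 2 of the 3 fits that left out a replicate number, where the adjusted p was 0.145 without number 1, 0.0631 without number 2 and 0.0211 without number 3.

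BTC, which also binds ERBB4, was at 4.48, 3.63 and 2.84 TPM in CYST and at 10.3, 11.1 and 8.36 TPM in MAT. The groups again did not overlap, and the level was 2.30-, 3.07- and 2.94-fold higher within numbers 1, 2 and 3. The Log2FC was 1.44 ± 0.29 with an adjusted p of 0.0525, and 0.0243 with the block. Leaving out numbers 1, 2 and 3 in the blocked fit gave an adjusted p of 0.1301, 0.114 and 0.01996.

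HBEGF was at 62.3, 74.7 and 58.9 TPM in CYST and at 77.3, 68.6 and 65.6 TPM in MAT, with overlapping groups. Its Log2FC was 0.10 with a 95% interval of -0.30 to 0.50 and an adjusted p of 0.801. This was the tightest estimate among the 5 ligands.

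EREG was at 43.5, 72.4 and 11.6 TPM in CYST and at 24.5, 24.7 and 19.8 TPM in MAT. The 3 MAT libraries were close together, whereas the CYST libraries spread widely on both sides of them. The Log2FC was -0.82 with a 95% interval of -1.93 to 0.29 and an adjusted p of 0.382. In numbers 1 and 2 the level was lower in MAT and in number 3 it was higher. Without number 3 the blocked fit gave a Log2FC of -1.12 with an adjusted p of 0.0125, against 0.341 with all numbers and up to 0.912 among the other settings tried.

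In all, edgeR's quasi-likelihood test called 1 of the 5 ligands in this comparison (adjusted p under 0.05), beside 1.79% of the 12074 genes tested in either direction and 0.845% called higher. DESeq2 and the likelihood ratio test, also without the block, each called 3 (AREG, BTC and TGFA), and limma on log2(TPM + 1) called AREG. The share of all genes called by these other tools was not taken, so their calls cannot be set against it. With the block 3 of the 5 were called, all higher in MAT, beside 10.6% of genes in either direction and 4.9% called higher. The median Log2FC was 1.22 over the 5 ligands and 0.0124 over all genes tested, where the median absolute Log2FC was 0.388. The ligands were chosen with earlier results of these data known, so these counts and medians are a description.

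**Figure D2:**
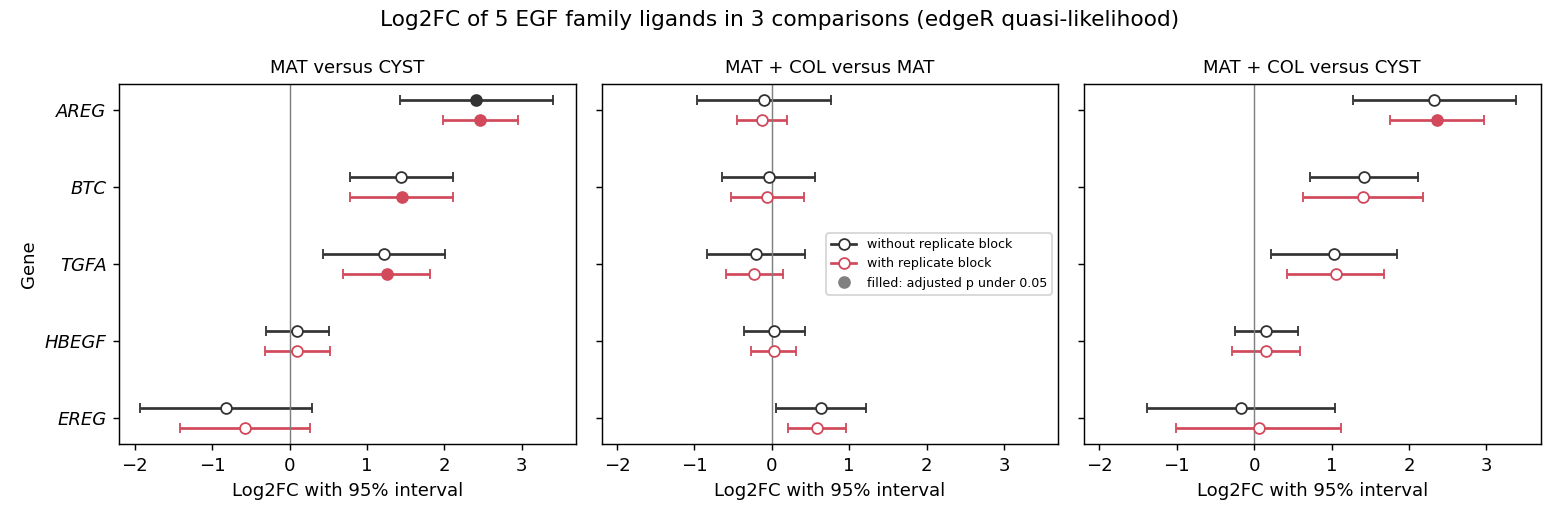
Log2FC (horizontal axis, log2 scale) of each ligand in the 3 comparisons with its 95% interval, without (black) and with (red) the replicate block, where filled points have an adjusted p under 0.05. AREG, BTC and TGFA sit to the right of 0 in both comparisons with CYST, and all 5 ligands have Log2FC values between -0.23 and 0.63 for MAT + COL versus MAT.

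The epithelial marker sum moved in the same direction as AREG, BTC and TGFA. Of the 6 epithelial markers all had a positive Log2FC in MAT versus CYST (median 0.79), and EPCAM, KRT8 and KRT19 were called with the block (0 of 6 without it). Of the 9 stromal markers 8 had a negative Log2FC (median -0.65), with DCN called lower and VIM called higher with the block. Among all genes tested in this comparison, 10.6% were called with the block and 1.79% without it. Relative to EPCAM in the same library, AREG was at 1.72 to 5.36 TPM per 100 TPM of EPCAM in CYST and at 7.37 to 13.6 in MAT, and did not overlap. BTC was at 0.719 to 1.08 and at 1.31 to 1.54 on this scale, also without overlap, whereas TGFA overlapped at 0.559 to 1.33 and 1.14 to 1.82. HBEGF lay lower in MAT on this scale, at 14.9 to 16.6 in CYST and 8.98 to 11.6 in MAT. These ratios were chosen after the values had been seen, and the part of the epithelial and stromal markers in the ligand differences was not tested.

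The makeup of the ligand transcripts was described by shares. AREG made up 11.1% ± 2.61 of the summed TPM of the 5 ligands in CYST, 40.5% ± 8.07 in MAT and 36.4% ± 9.40 in MAT + COL (SD, n = 3). EREG made up 29.2% ± 13.5, 12.02% ± 1.20 and 17.6% ± 2.51, and HBEGF 53.5% ± 15.9, 37.2% ± 6.57 and 36.8% ± 7.84. BTC and TGFA contributed between 2.02% and 6.64% in every library.

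In single libraries, the share of AREG was 11.7%, 13.4% and 8.26% in CYST and 42.2%, 47.6% and 31.7% in MAT. The lowest share with EGF, 25.5% in MAT + COL replicate 3, was above the highest share without it. The ratio of AREG to EREG transcripts was 0.333 to 0.584 in CYST, 2.37 to 4.23 in MAT and 1.42 to 2.85 in MAT + COL. Per length, all CYST libraries thus held more EREG than AREG, and all libraries with EGF held more AREG than EREG.

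The summed TPM of the 5 ligands was 131.1 ± 48.8 in CYST, 193.9 ± 39.8 in MAT and 213.2 ± 59.4 in MAT + COL, and these ranges overlapped. With 3 libraries against 3, an exact permutation test of such a single value cannot go below a p of 0.1, so no test was made. Shares depend on the scale: with CPM, normalized counts that are not divided by length, AREG took 7.58% of the sum in CYST and 30.1% in MAT, and in CYST EREG, at 40.9%, stood above HBEGF, at 37.9%.

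**Figure D3:**
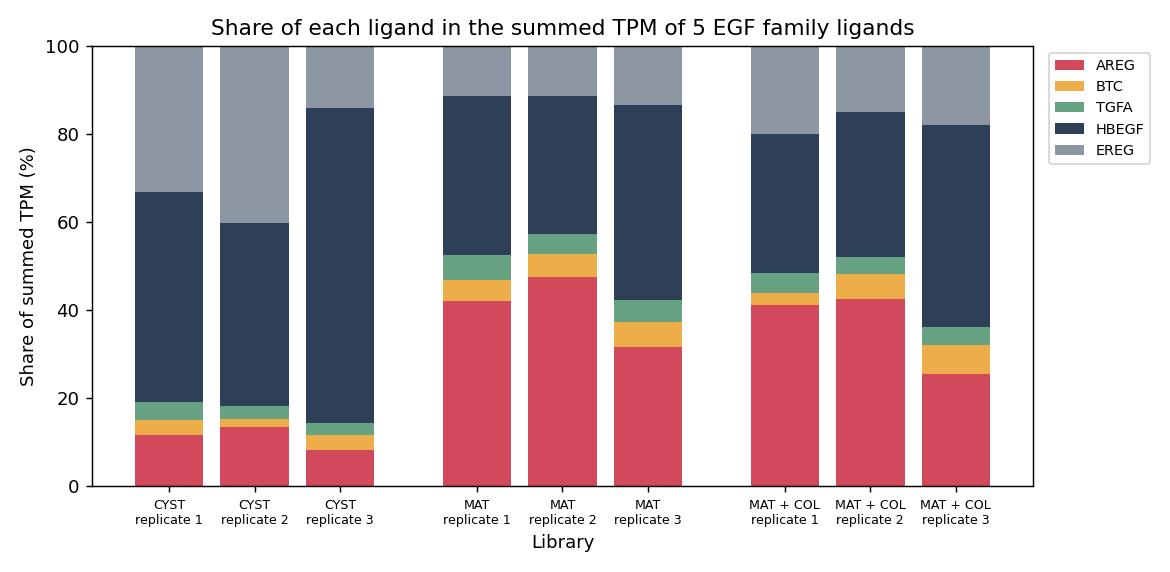
Share of each ligand in the summed TPM of the 5 ligands (vertical axis, percent) for the 9 libraries, grouped as CYST, MAT and MAT + COL. AREG takes 8.26% to 13.4% in CYST and 25.5% to 47.6% in the libraries with EGF, while EREG takes its largest shares, 33.2% and 40.2%, in CYST replicates 1 and 2.

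The comparison of MAT + COL with MAT asks whether the collagen I added to the gel went with a difference in the ligands of EGF-treated structures. No ligand was called. EREG came nearest, with a higher level in MAT + COL in each replicate number, and the other 4 ligands had Log2FC values between -0.21 and 0.03.

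EREG was at 24.5, 24.7 and 19.8 TPM in MAT and at 55.7, 28.9 and 29.7 TPM in MAT + COL. The groups did not overlap, and the fold within numbers 1, 2 and 3 was 2.27, 1.17 and 1.499. The Log2FC was 0.63 ± 0.25 with a 95% interval of 0.05 to 1.22, an unadjusted p of 0.0364 in edgeR's quasi-likelihood test and an adjusted p of 1. EREG ranked at 30 by p among the 12470 genes tested. Replicate 1 carried much of the difference: without MAT + COL replicate 1 the Log2FC was 0.34. The adjusted p ranged from 0.280 to 1 over the settings tried.

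AREG was at 115.0, 82.4 and 42.3 TPM in MAT + COL, with a Log2FC of -0.10 (95% interval -0.97 to 0.77) against MAT. BTC was at 8.04, 11.1 and 11.01 TPM (Log2FC -0.04, interval -0.64 to 0.55) and TGFA at 12.8, 7.68 and 6.79 TPM (Log2FC -0.21, interval -0.84 to 0.43). HBEGF was at 88.3, 64.0 and 75.9 TPM (Log2FC 0.03, interval -0.36 to 0.42). Each of these ligands was higher in some numbers and lower in others, and the groups overlapped.

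Of the 5 ligands 0 were called for collagen I by edgeR's quasi-likelihood test, beside 0% of the 12470 genes, and 1 (EREG) had an unadjusted p under 0.05, beside 0.409% of genes. DESeq2, the likelihood ratio test and limma on log2(TPM + 1) also called 0 ligands. With the block 0 ligands and 0% of genes were called. EREG then had a Log2FC of 0.58, an unadjusted p of 0.00631 and an adjusted p of 0.955, and 4.96% of genes had an unadjusted p under 0.05.

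MAT + COL was also compared with CYST, which differs in both EGF and collagen I. This comparison shares the CYST libraries with MAT versus CYST and the MAT + COL libraries with MAT + COL versus MAT, so the values are given side by side and are not independent. AREG had a Log2FC of 2.33 ± 0.45 with an adjusted p of 0.0545, and 2.36 ± 0.25 with an adjusted p of 0.0163 with the replicate block. The folds within numbers were 7.53, 3.42 and 6.22. Without MAT + COL replicate 3 the adjusted p without the block was 0.0419, and over all settings tried it ranged from 9.47e-13 to 0.186.

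BTC had a Log2FC of 1.42 ± 0.30 (adjusted p 0.0617, and 0.0589 with the block), and TGFA had 1.03 ± 0.35 (adjusted p 0.150, and 0.0678 with the block). Both were higher in MAT + COL than in CYST in each of the 3 numbers. HBEGF had a Log2FC of 0.15 with an interval of -0.25 to 0.56. EREG had -0.17 with an interval of -1.38 to 1.04, and its sign turned with the block, at 0.06.

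Of the 5 ligands 0 were called without the block by edgeR's quasi-likelihood test, beside 1.49% of the 12509 genes tested, and 3 (AREG, BTC and TGFA) had an unadjusted p under 0.05, beside 21.7% of genes. DESeq2 and the likelihood ratio test each called AREG and BTC, and limma on log2(TPM + 1) called 0. With the block AREG was called, beside 5.26% of genes.

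The remaining ErbB ligands were scarce. EPGN (epigen), a ligand of EGFR whose gene lies beside EREG, had 0 to 10 counts and at most 0.877 TPM in a library. The neuregulin gene NRG2, whose product binds ERBB3 and ERBB4, had 0 counts in all 9 libraries, as did NRG3. NRG4, a ligand of ERBB4, had at most 1 count. None of these 4 genes passed the filter on low counts, and NRG1 was not analysed here. A count of 0 allows up to 3 counts, or 0.167 to 0.457 CPM at these depths, for counting error only.

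Among the receptors, ERBB3, a receptor with little kinase activity of its own that signals in dimers, was by far the most abundant. It was at 283.5, 381.9 and 200.2 TPM in CYST and at 432.9, 520.2 and 398.0 TPM in MAT, without overlap. Its Log2FC was 0.66 ± 0.21 with an adjusted p of 0.132, and 0.0418 with the block. EGFR, the receptor shared by all the ligands here, was at 29.9, 30.1 and 16.2 TPM in CYST and at 44.5, 28.8 and 56.6 TPM in MAT, with a Log2FC of 0.80 ± 0.30 and an adjusted p of 0.180.

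ERBB2, which has no ligand of its own and pairs with the other receptors, was at 32.2, 28.2 and 19.5 TPM in CYST and at 38.9, 39.0 and 31.6 TPM in MAT, with a Log2FC of 0.46 ± 0.19 and an adjusted p of 0.218. ERBB4, the second receptor of BTC, HBEGF and EREG, had at most 2 counts in a library. Without the block edgeR's quasi-likelihood test called 0 of the 3 receptors tested, all 3 with an unadjusted p under 0.05 beside 20.7% of all genes tested, and DESeq2 called ERBB3. For collagen I edgeR and DESeq2 called 0 of the 3 without the block, where 0 had an unadjusted p under 0.05 and Log2FC values ran from -0.41 to 0.15. With the block edgeR also called 0 of the 3, and EGFR, lower in MAT + COL in 3 of 3 numbers, had a Log2FC of -0.38, an unadjusted p of 0.0107 and an adjusted p of 0.955.

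Of 16 genes for shedding and trafficking of the ligands 15 were tested in MAT versus CYST. edgeR's quasi-likelihood test called 0 of them, with 6 at an unadjusted p under 0.05 beside 20.7% of all genes, and their median Log2FC was 0.19, with 9 positive and 6 negative. DESeq2 called ADAM9, CNIH1 and CNIH4. ADAM17, the main sheddase of AREG, TGFA, HBEGF and EREG, had a mean of 72.3 TPM in CYST and 66.1 in MAT, with a Log2FC of -0.14 and an adjusted p of 0.799.

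With the block 2 of the 15 were called, in opposite directions, beside 10.6% of all genes called in that fit, a similar share. RHBDF1 (iRhom1), which carries ADAM17 to the surface, had a blocked Log2FC of 1.10 and an adjusted p of 0.0262, against 0.284 without the block. CNIH1 (a cornichon protein), which aids export of TGFA-type precursors from the endoplasmic reticulum, was at 90.3, 80.4 and 62.0 TPM in CYST and at 45.4, 49.1 and 42.8 TPM in MAT. Its blocked Log2FC was -0.76 with an adjusted p of 0.0339, against 0.0608 without the block.

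Of 17 genes for negative feedback on EGFR and ERK, 16 were tested and edgeR's quasi-likelihood test called 0 with or without the block, with 2 (DUSP4 and LRIG1) at an unadjusted p under 0.05 beside 20.7% of all genes in the fit without the block. DESeq2 called 0 without the block and LRIG1 with it. The median Log2FC was 0.20. DUSP4, a phosphatase acting on ERK, had the largest Log2FC of the list, 1.68 ± 0.67, with an adjusted p of 0.207. Its mean was 1.24 TPM in CYST and 4.22 TPM in MAT. DUSP6, another ERK phosphatase, had a Log2FC of 0.21 and an adjusted p of 0.790.

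Of 13 ERK-responsive transcription factors and targets edgeR's quasi-likelihood test called 0 without the block. At an unadjusted p under 0.05 was 1 of the 13 (FOSL1), beside 20.7% of all genes. DESeq2 and the likelihood ratio test each called FOSL1. The median Log2FC was 0.39. With the block 2 of the 13 were called beside 10.6% of all genes, a similar share. FOSL1, a partner in the AP-1 transcription factor, was at 7.42, 10.5 and 26.8 TPM in CYST and at 2.70, 2.44 and 5.96 TPM in MAT, with a blocked Log2FC of -1.96 and an adjusted p of 0.0173, against 0.131 without the block. JUNB, another AP-1 partner, had a blocked Log2FC of 0.80 and an adjusted p of 0.0307, against 0.245. The list had 7 positive and 6 negative Log2FC values.

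AREG is also a known target of cAMP signaling, so 8 cAMP-responsive genes were listed. Without the block edgeR's quasi-likelihood test called 0 of the 8, with 2 (CREM and NR4A2) at an unadjusted p under 0.05 beside 20.7% of all genes, and DESeq2 and the likelihood ratio test each called both. With the block the same 2 of the 8 were called, in opposite directions, beside 10.6% of all genes. CREM, a transcription factor of the cAMP response, was at 18.3, 19.7 and 37.6 TPM in CYST and at 4.28, 4.94 and 9.86 TPM in MAT, with a blocked Log2FC of -2.02 and an adjusted p of 0.00488, against 0.0730 without the block. NR4A2, an orphan nuclear receptor induced by cAMP, was at 1.55, 2.67 and 2.51 TPM in CYST and at 4.91, 6.99 and 8.32 TPM in MAT, with a blocked Log2FC of 1.57 and an adjusted p of 0.0262, against 0.0813. Neither gene overlapped between the groups. The median Log2FC of the list was 0.25.

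AREG is likewise known as a target of YAP and TAZ. Of 6 other YAP and TAZ targets 5 were tested, and edgeR's quasi-likelihood test called 0 without the block. At an unadjusted p under 0.05 were 0 of the 5, beside 20.7% of all genes. DESeq2 and limma on log2(TPM + 1) also called 0. The median Log2FC was -0.92. With the block 2 of the 5 were called beside 10.6% of all genes. These were CCN1 and CCN2, which encode matricellular proteins and were lower in MAT, with Log2FC values of -1.33 and -1.14 and adjusted p-values of 0.0486 and 0.0360, against 0.245 and 0.519 without the block. The list had 2 positive and 3 negative Log2FC values with or without the block. Any part of YAP and TAZ in the AREG level was not tested.

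**Figure D4:**
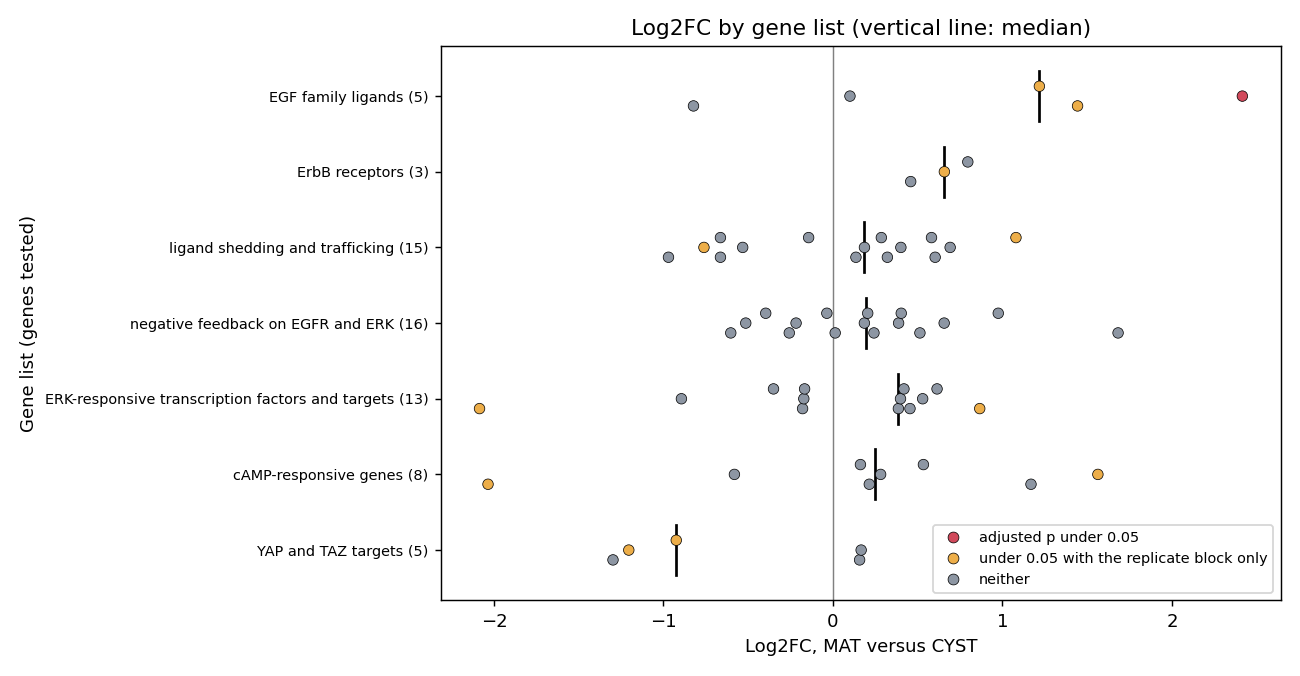
Log2FC for MAT versus CYST (horizontal axis, log2 scale) of each tested gene, by list, with the number tested in brackets, a vertical line at each median, and colors for calls without the block (red) or with it only (orange). The ligands have the highest median, 1.22, and AREG is the only red point, while the YAP and TAZ targets have the lowest median, -0.92. The ligands and lists were chosen with earlier results of these data known.

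In the other comparisons these lists gave few calls. For collagen I edgeR's quasi-likelihood test called 0 of the 60 listed genes tested with or without the block. At an unadjusted p under 0.05 were 0 of the 60 without the block, and 7 with it (EGFR, ADAM17, SPRY4, EGR1, ETV5, JUNB and PHLDA1), beside 4.96% of all genes. DESeq2 called 0 without the block and PHLDA1 with it. For MAT + COL versus CYST edgeR's test called 0 of the 60 listed genes tested without the block. Of these, 14 had an unadjusted p under 0.05 beside 21.7% of all genes, and DESeq2 without the block called 8. With the block edgeR's test called 4 of the 60 (CNIH1, FOSL1, CREM and NR4A2), beside 5.26% of all genes.

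The genes around AREG, EREG and BTC on chromosome 6 had Log2FC values on both sides of 0. Relative to the start of AREG, EREG starts at -72.7 kb and BTC at 302.3 kb, and their Log2FC values in MAT versus CYST were -0.82, 2.42 and 1.44 in the order EREG, AREG, BTC. Within 500 kb of the cluster lay 10 other genes, of which 7 were tested and edgeR's quasi-likelihood test called 0 without the block, with 4 at an unadjusted p under 0.05 beside 20.7% of all genes. DESeq2 called CXCL2, CXCL8 and PARM1.

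With the block 3 of the 7 were called beside 10.6% of all genes. PARM1, a membrane mucin-like protein gene beyond BTC, was at 10.7, 27.9 and 7.84 TPM in CYST and at 40.9, 58.4 and 30.6 TPM in MAT, with a blocked Log2FC of 1.63 and an adjusted p of 0.00720, against 0.0991 without the block. The groups did not overlap. On the other side of EREG, the chemokine genes CXCL5 and CXCL2 had blocked Log2FC values of -1.24 and -1.56 and adjusted p-values of 0.0262 and 0.0298, against 0.228 and 0.0843. CXCL8, also a chemokine, had a Log2FC of -1.42 and an adjusted p of 0.139, and 0.0511 with the block. Counts could have been split between related chemokine genes of this cluster. This was not tested, so their values are uncertain.

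**Figure D5:**
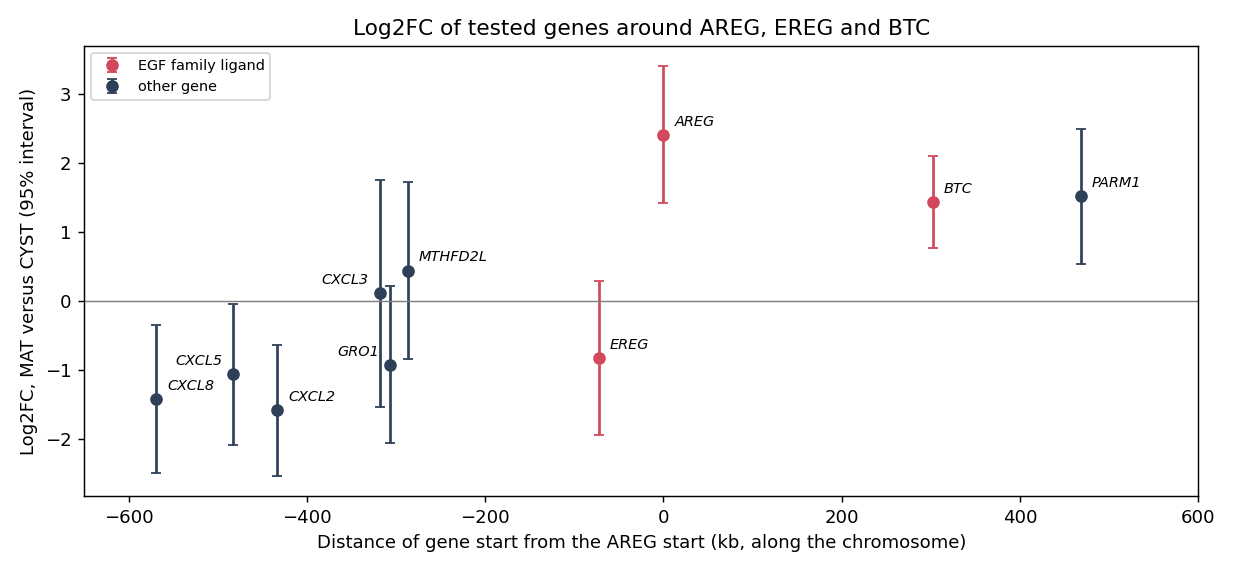
Log2FC for MAT versus CYST with its 95% interval (vertical axis, log2 scale) against the distance of each gene's start from the AREG start in kb (horizontal axis), for the ligands (red) and the other tested genes within 500 kb of the cluster (blue). AREG, BTC and PARM1 lie above 0, and CXCL8, CXCL5 and CXCL2 lie below it, as does EREG at -0.82.

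For each ligand, the 3 genes of most similar pattern were found among 12858 genes by the root mean square difference of centred log2 CPM over the 9 libraries. For AREG these were PKIB at 0.306, PALMD at 0.339 and L1CAM at 0.387, where the median gene differed by 1.33. PKIB, an inhibitor of protein kinase A, was at 2.86, 5.27 and 1.98 TPM in CYST and at 20.1, 28.7 and 10.7 TPM in MAT. It had its lowest level in number 3 within each group, as AREG did. These genes were picked for likeness in the same libraries, so their Log2FC values are a description and no test of them is given.

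The closest genes to BTC were PAQR8 at 0.117, SH3D19 at 0.181 and FGD3 at 0.202, and those to TGFA were MYO5B at 0.152, IGSF9 at 0.173 and P2RX3 at 0.176. For HBEGF, which varied least, they were AP2A2 at 0.0592, ATP6V1H at 0.0756 and ACADVL at 0.0800. EREG had no neighbour closer than ATP2A3 at 0.308, followed by JAG1 at 0.322 and FAM13B at 0.324, against an SD of EREG itself of 0.686. No gene was shared between the sets of the 5 ligands.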

How the data were processed

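Uterine gland fragments were sequenced with 3 libraries per group (CYST, MAT and MAT + COL), grouped by the labels. Reads of SMART-Seq libraries were trimmed and aligned in CLC Genomics Workbench by the authors, who deposited unnormalized read counts per gene. A second table, of TPM for those genes, was also deposited by the authors. The annotation release and the strand setting are not given in the sources used here.

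Tests ran in R 4.3.3 on edgeR 4.0.16, with DESeq2 1.42.0 and limma 3.58.1 for alternatives, and plots in Python 3.11.15 with matplotlib 3.10.9. Genes passing filterByExpr (minimum count 10) were TMM-normalized and tested on the 6 libraries of a comparison by glmQLFit and glmQLFTest, with Benjamini-Hochberg adjustment over all genes tested. A gene was called at an adjusted p under 0.05. Shares of all genes called were taken for edgeR's quasi-likelihood fits with and without the replicate block only. Calls by the other tools and settings have no such share beside them, nor do statements that groups did not overlap. A DEG also needed an absolute Log2FC over 1 and more than 1 TPM in all 6 libraries. The study asks for a minimum TPM above 1, which was read here as holding in each library. It does not name its test, and it reported more DEGs for UG-LIKE structures versus cysts than were found here. Levels are deposited TPM, ± gives the SD of a level or share and the SE of a Log2FC, and intervals are 95%.

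The sample titles number the replicates 1 to 3 in each group. The library names carry other numbers, which rise in the same order within each group. MAT and MAT + COL libraries that share a title number carry consecutive numbers in these names. In all 9 pairs, libraries sharing a title number departed together from their group means (correlations of 0.278 to 0.687). Each CYST library matched its own number best in MAT and in MAT + COL, as did each MAT library in MAT + COL. The title numbers were therefore taken to pair the samples, and the fit with the number as a block is given where it changes a call. The study's text speaks of individuals among the MAT and MAT + COL samples without saying which libraries share one, and the labels name no animals, so which libraries are paired comes from the numbers and the data. Where libraries of a group did not come from separate animals, p-values measure only the spread between these samples. No 2 libraries of a group agreed within sampling noise.

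The members and lists were chosen with earlier results of these data known. Named genes were the ligands, the other ErbB ligands and receptors, the listed or neighbouring genes called in any comparison with or without the block (up to 5 per list), and the 3 genes most similar to each ligand. ADAM17, DUSP4, DUSP6, ADAM9, CNIH4, LRIG1, PHLDA1, SPRY4, EGR1, ETV5, CXCL8 and the marker genes named were added after their values were seen. Alternatives were DESeq2, the likelihood ratio test, RLE size factors, testing unfiltered genes, the replicate block, fitting all 9 libraries, limma on log2(TPM + 1) and log2(TPM + 0.1), CPM in place of TPM, and leaving out each library. Blocked fits without 1 replicate number were added after the data were seen. The fits were tested on simulated data. Floors cover counting error only. Protein and promoter sequences were not used here.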

Additional observations from a re-analysis of the deposited data

How the results depend on the processing

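The replicate block raised the ligands called in MAT versus CYST from 1 to 3 and in MAT + COL versus CYST from 0 to 1, and the listed genes called from 0 to 9 and from 0 to 4. Among all genes tested the share called also rose, from 1.79% to 10.6% and from 1.49% to 5.26% in the same order. The counts below for other settings have no such share beside them. For the ligands and listed genes the block changed no call in MAT + COL versus MAT. In MAT versus CYST, DESeq2, the likelihood ratio test, DESeq2 with the block and the 9-library fit with the block each called 3 ligands, the 9-library fit 2, and leaving out libraries 0 to 4. These settings called 7, 4, 14, 15, 3 and 0 to 17 listed genes. In MAT + COL versus CYST, DESeq2, the likelihood ratio test and the 9-library fit called 2 ligands each, testing unfiltered genes 1, both other blocked fits 3, and fits without a library 0 to 2. The listed genes called were 8 by DESeq2, 4 by the likelihood ratio test, 3 in the 9-library fit, 1 among unfiltered genes, 14 by DESeq2 and 13 in the 9-library fit when blocked, 1 by either limma fit, and 0 to 21 without a library. For collagen I no setting called a ligand, DESeq2 with the block called 1 listed gene, and fits without a library called 0 to 1. AREG in MAT versus CYST kept its sign in 19 of 19 alternatives and was called in 15, with an adjusted p of 4.17e-17 to 0.166. BTC kept its sign in 19 and was called in 7 (0.000434 to 0.163), and TGFA in 19 and 6 (0.00106 to 0.218). ERBB3 was called in 5 of 19 (0.00246 to 0.308), and each listed or neighbouring gene called with the block was called in 3 to 7 of 19 in MAT versus CYST. The causes were not tested.

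Signs turned in these results. In MAT + COL versus CYST, EREG turned to 0.057 with the block, 0.060 with DESeq2 and the block, 0.11 and 0.13 with limma, 0.40 without CYST replicate 2 and 0.70 in the blocked fit without replicate 2, and fits without a library ranged from -0.59 to 0.70. In MAT + COL versus MAT, BTC turned to 0.0104 and 0.011 with limma at the larger and smaller pseudocount, 0.04 without MAT replicate 2, 0.14 without MAT + COL replicate 1 and 0.14 in the blocked fit without replicate 1 (range -0.26 to 0.14, and -0.16 at the lowest without the block). AREG turned to 0.13 without MAT replicate 2, 0.18 without MAT + COL replicate 3 and 0.013 in the blocked fit without replicate 2 (range -0.39 to 0.18). HBEGF turned to -0.025 without MAT + COL replicate 1, -0.0094 without MAT + COL replicate 3 and -0.045 in the blocked fit without replicate 3 (range -0.045 to 0.14). ACADVL in MAT versus CYST turned to -0.021 in the blocked fit without replicate 1.

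On the CPM scale the shares of AREG, BTC, TGFA, HBEGF and EREG were 7.58%, 4.98%, 8.59%, 37.9% and 40.9% in CYST, which turns the order of HBEGF and EREG. In MAT they were 30.1%, 9.204%, 14.5%, 27.6% and 18.6%, and in MAT + COL 26.4%, 8.80%, 11.7%, 26.6% and 26.55%. In MAT + COL the mean shares of AREG, HBEGF and EREG were thus near level by CPM, whereas by TPM AREG and HBEGF stood above EREG. TPM divides by length and CPM does not, so the scales differ by construction.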
